A study of Homo sapiens with 6 samples.

Results

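Tissue factor, the plasminogen activator system of the cell surface and their inhibitors were followed by 9 listed genes in MDAMB468 cells with and without forced IGFBP2 expression, and 6 of the 9 (F3, TFPI, PLAU, PLAUR, SERPINE2 and ANXA2) had a row among the 10487 genes. The listed genes were chosen on the difference between these same groups of libraries, so their group differences are given as a description, without a test. The MDAMB468 line is an established human cell model of triple negative breast cancer. The study asked what IGFBP2, an insulin-like growth factor binding protein that marked cells tolerant to the EGFR inhibitor afatinib, does to the transcriptome. The IGFBP2 overexpression group is a stable line in which a guide RNA directs a nuclease-dead Cas9 with activator domains, delivered by lentivirus, to the IGFBP2 promoter, and cells were sorted for the fluorescent marker of the guide vector. The control group is MDAMB468 with a wild type genotype per the labels, and both groups were untreated. Whether control cells carried the activator or a guide is not given in the sources used here, so an effect of the activator itself cannot be told apart from one of IGFBP2.

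Total RNA of 3 biological replicates per group was read from the 3′ end of polyadenylated transcripts (QuantSeq). With 1 fragment expected per transcript, levels are given as CPM, the reads of a gene scaled to a common library total, and are not divided by transcript length. Values of a group are listed in the order of replicates 1, 2 and 3. All 10487 genes together held 2497353 to 4579587 reads per library. IGFBP2 itself was at 93.5, 87.3 and 136 CPM in the control and at 566, 1176 and 498 CPM in the IGFBP2-overexpressing libraries, which fits the labels. All 7 epithelial and breast cancer markers were measured, with a summed level of 5308 to 6478 CPM in the control and 5572 to 6579 CPM in IGFBP2 overexpression libraries, and 4 of 5 basal markers were measured, at 349 to 573 and 475 to 680 CPM. KRT19 was the largest part of the epithelial sum (means of 2608 and 2828 CPM). KRT7 was lower in every IGFBP2 overexpression library (means of 807 and 590 CPM), and KRT8, KRT18 and CDH1 had lower means with overlap. EGFR (means of 937 and 1262 CPM), EPCAM and KRT19 had higher means there, with overlap. Among the basal markers, KRT6B (means of 9.56 and 31.4 CPM) and KRT5 (346 and 480 CPM) were higher in IGFBP2 overexpression. KRT17 (121 and 82.9 CPM) and KRT14 (11.8 and 10.8 CPM) had lower means there, and of the basal markers only KRT6B had libraries that were apart. Of the hormone receptor and HER2 markers 1 of 3 had a row, ERBB2, at 15.8 to 37.0 and 16.8 to 24.0 CPM, while ESR1 and PGR had none. No row was found for any of 6 endothelial or 5 leukocyte markers, and 1 of 6 fibroblast markers had one, COL1A1, at 12.2 to 27.5 CPM in the control and 9.36 to 15.8 CPM in IGFBP2 overexpression libraries.

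Tissue factor, the product of F3, is a membrane receptor that binds coagulation factor VIIa and starts the extrinsic pathway of blood clotting, and tissue factor pathway inhibitor (TFPI) blocks that complex. Urokinase (PLAU) is a secreted protease that converts plasminogen to plasmin, and its receptor (PLAUR) holds it at the cell surface, where plasmin degrades fibrin and matrix proteins. Protease nexin-1 (SERPINE2) inhibits thrombin, urokinase and plasmin, and annexin A2 (ANXA2) together with S100A10 binds plasminogen and tissue plasminogen activator. Many carcinomas express tissue factor and the urokinase receptor, and both are studied for their part in invasion.

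All 6 measured genes had a higher mean in IGFBP2 overexpression cells than in control cells, the contrast on which the listed genes were chosen. For TFPI, with a control mean of 4.70 CPM, the higher mean follows from the filter on average CPM. For 5 of the 6, F3, SERPINE2, PLAUR, TFPI and ANXA2, each IGFBP2 overexpression library lay above each control library, and PLAU overlapped. Over all genes, 9.43% were apart in this direction and 8.61% in the other. The largest of the 6 log2 fold changes was that of F3 and the smallest that of ANXA2. Their median log2 fold change was 1.04, beside 9.82e-05 over all genes. In bulk RNA, fewer expressing cells and less RNA per cell cannot be told apart.

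**Figure D1:**
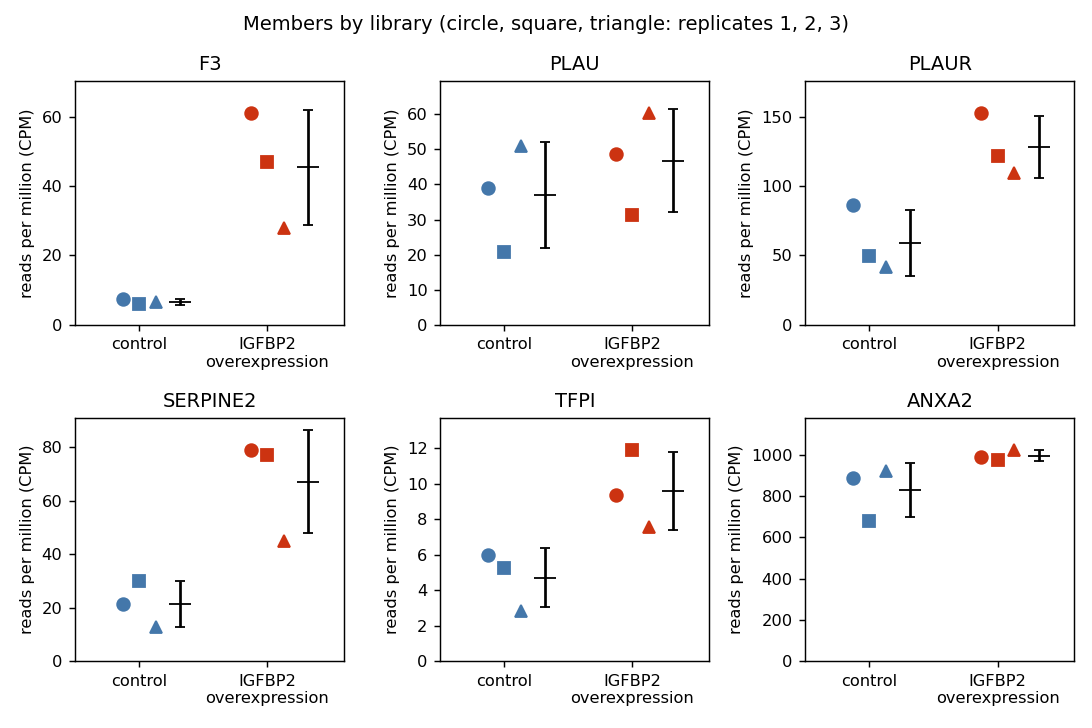
Level of the 6 measured genes in each library, in CPM on a linear axis that starts at 0 in each panel. Points are libraries (circle, square and triangle for replicates 1, 2 and 3) and black marks are the mean and SD of 3 libraries. F3 lies between 5.84 and 7.33 CPM in the control and between 27.9 and 61.2 CPM in IGFBP2 overexpression cells, while the groups overlap for PLAU.

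F3 (ENSG00000117525) lies on the minus strand at chr1:94529173-94541759 of GRCh38 and has 6 exons. Its level was 7.33, 5.84 and 6.47 CPM in the control and 61.2, 47.1 and 27.9 CPM in the IGFBP2-overexpressing libraries. The control libraries lay close together and far below the others, and the lowest IGFBP2 overexpression library was 3.81-fold above the highest control library. Means were 6.55 ± 0.745 CPM (SD, n = 3) for control and 45.4 ± 16.7 CPM (SD, n = 3) for IGFBP2 overexpression, a 6.94-fold difference. On the log2(CPM + 1) scale the fold change was 2.56 (standard error 0.28), the 99.9th percentile of all genes. These levels rest on 33, 21 and 16 reads in control and on 157, 146 and 85 reads in IGFBP2 overexpression libraries. Among the IGFBP2 overexpression libraries F3 was highest in replicate 1 and lowest in replicate 3, and its coefficient of variation there was 36.8%, beside a median over all genes of 15.5%. In control cells it was 11.4%, beside a median of 19.5%, but at 16 to 33 reads per library this is no measure of stable expression. With a pseudocount of 5 in place of 1, the log2 fold change was 2.07.

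The bases before the F3 start are shown because matches to several motifs of factors known to act on this promoter stand close together in them. The window comprises the 250 bases before the RefSeq start (GRCh38.p14, chr1:94541760-94542009, minus strand, printed 5′ to 3′), and capitals mark matches to the AP-1 motif and to the kappaB motif.
F3: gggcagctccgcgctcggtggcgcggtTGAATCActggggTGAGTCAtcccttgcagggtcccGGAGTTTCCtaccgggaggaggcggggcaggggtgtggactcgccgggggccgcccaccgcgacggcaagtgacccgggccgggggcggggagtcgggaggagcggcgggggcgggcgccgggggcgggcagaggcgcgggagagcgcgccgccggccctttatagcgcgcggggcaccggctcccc
On either strand, the AP-1 motif TGANTCA (any base at N) matched at 223 and 210 bases before the start and the kappaB motif GGANTTTCC at 187 bases before it. Of 35116 RefSeq windows of this length, 6.57% held the AP-1 motif, 0.402% held it more than once and 1.45% held the kappaB motif. Among 12519 windows of genes in the table, 4.30% held AP-1 and 1.57% kappaB. The SP1 motif GGGCGG matched 4 times in the F3 window (42.6% of all windows held it) and the EGR motif GCGNGGGCG once (8.41%), overlapping an SP1 match. Among windows of genes in the table, 65.0% held SP1 and 13.6% EGR. The F3 window was rich in G and C, at 78% against a median of 58%. A match is a run of letters and was not tested for binding in these cells.

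All 6 measured genes matched the RefSeq promoter windows, with more than 1 start for PLAU and SERPINE2. The AP-1 motif was also found once for PLAUR, at 186 bases before the start, and once for ANXA2, at 127 bases before it. Their surroundings are given for comparison with F3, as 30 bases on the minus strand of GRCh38 at chr19:43670337-43670366 and chr15:60398095-60398124, with the match in capitals.
PLAUR: tcacaactccaTGAGTCAgggccgagccag
ANXA2: gcgggccggggTGAGTCAcccctgacttgg
The same 7 letters as in the match of F3 nearer to its start are in both. No match to AP-1 or kappaB was found in the windows of PLAU, SERPINE2 or TFPI. The TFPI window held none of the 4 motifs. Bases outside the windows were not searched for any gene, so the lack of a match holds for the windows only. PLAUR also held an EGR match, ANXA2 held 3 SP1 matches, and PLAU and SERPINE2 held SP1 matches only.

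**Figure D2:**
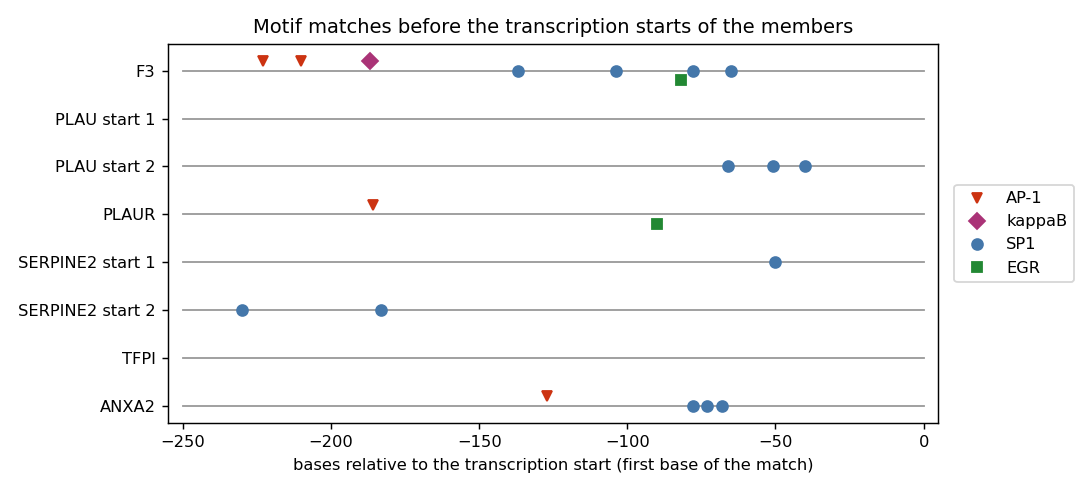
Matches to 4 motifs in the 250 bases before each RefSeq start of the 6 measured genes, with the distance from the start in bases on the horizontal axis and one line per start. F3 holds AP-1 matches at 223 and 210 bases and a kappaB match at 187 bases before the start, and the TFPI line holds no match.

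TFPI (ENSG00000003436; chr2:187464230-187565760, minus strand, 8 exons), the inhibitor of the tissue factor and factor VIIa complex, was at 5.99, 5.29 and 2.83 CPM in the control and at 9.36, 11.9 and 7.56 CPM in the IGFBP2-overexpressing libraries. The groups did not overlap, but the lowest IGFBP2 overexpression library was only 1.26-fold above the highest control library. Means were 4.70 ± 1.66 CPM (SD, n = 3) for control and 9.62 ± 2.21 CPM (SD, n = 3) for IGFBP2 overexpression, a 2.05-fold difference and a log2 fold change of 0.92 (standard error 0.27). TFPI had 7 to 37 reads per library, the fewest of the 6 genes. Since genes were kept at an average over 5 CPM in at least 1 condition, TFPI passed through the IGFBP2 overexpression group alone, and a gene at its control level in both groups would have had no row.

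Within a library, the ratio of F3 reads to TFPI reads does not depend on depth. There were 1.22, 1.11 and 2.29 F3 reads per TFPI read in the control and 6.54, 3.95 and 3.70 in the IGFBP2-overexpressing libraries. The ratio was higher in every IGFBP2 overexpression library than in any control library, with means of 1.54 ± 0.650 and 4.73 ± 1.58 (SD, n = 3 in each group).

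PLAUR (ENSG00000011422; chr19:43646095-43670547, minus strand, 7 exons), the urokinase receptor, was at 86.4, 49.5 and 41.6 CPM in the control and at 153, 122 and 110 CPM in the IGFBP2-overexpressing libraries. Control replicate 1 was the highest of its group and lay 1.27-fold under the lowest IGFBP2 overexpression library. Means were 59.2 ± 23.9 CPM (SD, n = 3) for control and 128 ± 22.2 CPM (SD, n = 3) for IGFBP2 overexpression, 2.16-fold higher, and the log2 fold change was 1.16 (standard error 0.28). These levels rest on 103 to 392 reads per library. In both groups replicate 1 was the highest and replicate 3 the lowest.

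PLAU (ENSG00000122861; chr10:73909177-73917496, plus strand, 11 exons), which encodes urokinase, the ligand of that receptor, was at 39.1, 20.9 and 50.9 CPM in the control and at 48.7, 31.3 and 60.4 CPM in the IGFBP2-overexpressing libraries. Control replicate 3 was above IGFBP2 overexpression replicates 1 and 2, so the groups overlapped. Means were 37.0 ± 15.1 CPM (SD, n = 3) for control and 46.8 ± 14.7 CPM (SD, n = 3) for IGFBP2 overexpression, a 1.27-fold difference that is smaller than the spread within either group. Between same-numbered libraries the differences were 9.66, 10.45 and 9.49 CPM, though whether these are pairs is not given in the sources used here. The log2 fold change of PLAU was 0.37 (standard error 0.35) and ranged from 0.019 to 0.64 when 1 library was left out. The lowest of these values was without control replicate 2, the highest was without control replicate 3, and leaving out replicate 3 or 2 of IGFBP2 overexpression gave 0.17 or 0.63.

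The ratio between receptor and ligand transcripts varied among libraries. PLAUR reads per PLAU read were 2.21, 2.37 and 0.818 in the control and 3.14, 3.89 and 1.82 in the IGFBP2-overexpressing libraries. The means were 1.80 ± 0.855 and 2.95 ± 1.05 (SD, n = 3 in each group), and the groups overlapped, since replicate 3 was the lowest of each.

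SERPINE2 (ENSG00000135919; chr2:223975045-224039318, minus strand, 9 exons), the inhibitor protease nexin-1, was at 21.3, 30.04 and 12.9 CPM in the control and at 79.1, 77.1 and 45.0 CPM in the IGFBP2-overexpressing libraries. The lowest IGFBP2 overexpression library was 1.498-fold above the highest control library. Means were 21.4 ± 8.55 CPM (SD, n = 3) for control and 67.1 ± 19.2 CPM (SD, n = 3) for IGFBP2 overexpression, a 3.13-fold difference and a log2 fold change of 1.63 (standard error 0.33). After F3 this was the largest of the 6 differences. Reads per library ranged from 32 to 239. As for F3 and PLAUR, replicate 3 was the lowest of the IGFBP2 overexpression libraries. SERPINE2 reads per PLAU read were 0.546, 1.44 and 0.254 in the control and 1.62, 2.46 and 0.745 in the IGFBP2-overexpressing libraries, with means of 0.747 ± 0.618 and 1.61 ± 0.860 (SD, n = 3 in each group), and this ratio overlapped between groups.

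ANXA2 (ENSG00000182718; chr15:60347134-60402883, minus strand, 13 exons) was by far the most counted of the 6 genes, at 889, 680 and 922 CPM in the control and at 991, 973 and 1026 CPM in the IGFBP2-overexpressing libraries. The groups were apart by little, with the lowest IGFBP2 overexpression library 1.06-fold above the highest control library. Means were 830 ± 131 CPM (SD, n = 3) for control and 997 ± 26.6 CPM (SD, n = 3) for IGFBP2 overexpression, a 1.20-fold difference and 0.28 as a log2 fold change (standard error 0.19). The difference between the means was little more than 1 SD of the control libraries, and without control replicate 2, the lowest of them, the log2 fold change was 0.14. Reads from close copies of ANXA2 elsewhere in the genome (ANXA2P1, ANXA2P2 and ANXA2P3), which had no row, cannot be told apart from its own.

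S100A10, the partner of annexin A2 in plasminogen binding, was at 614, 296 and 501 CPM in the control and at 934, 939 and 655 CPM in the IGFBP2-overexpressing libraries. Its groups did not overlap, with a log2 fold change of 0.88 that did not pass the limma test (adjusted p = 0.256, Benjamini-Hochberg over all genes) and was 0.58 without control replicate 2. S100A10 reads per ANXA2 read were 0.691, 0.435 and 0.544 in control and 0.942, 0.965 and 0.639 in the IGFBP2-overexpressing libraries. This ratio overlapped between groups, with means of 0.556 ± 0.128 and 0.849 ± 0.182 (SD, n = 3 in each group).

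**Figure D3:**
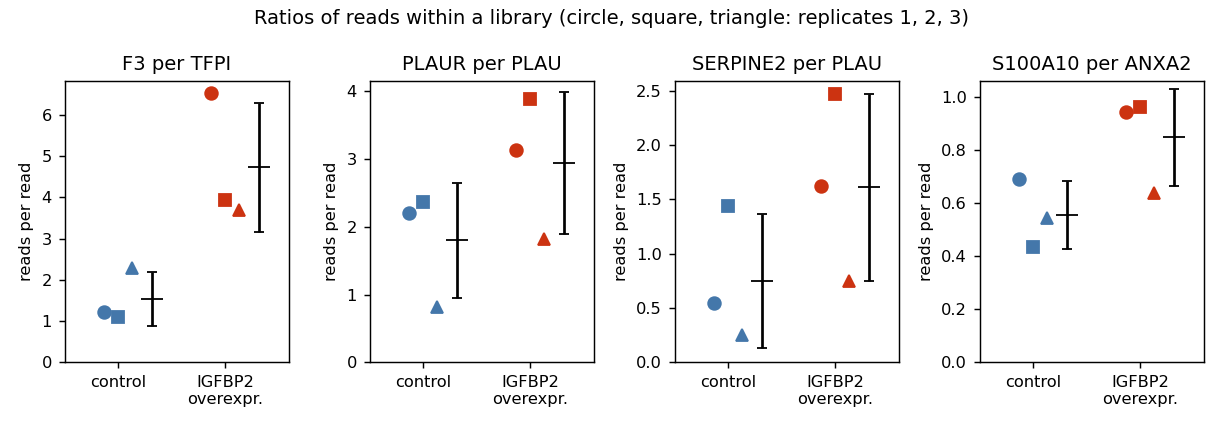
Ratios of reads of paired genes within each library, on linear axes from 0, with points for libraries and black marks for the mean and SD of 3 libraries. The groups are apart for F3 per TFPI (1.11 to 2.29 in control, 3.70 to 6.54 in IGFBP2 overexpression cells) and overlap for PLAUR per PLAU, SERPINE2 per PLAU and S100A10 per ANXA2.

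The other 3 listed genes had no row and were not analysed here. They are PLAT, which encodes tissue plasminogen activator, TFPI2, a Kunitz-type inhibitor of plasmin and other proteases, and THBD (thrombomodulin), which turns thrombin towards the activation of protein C. In the GENCODE 44 annotation, PLAU and TFPI each overlap a gene on the opposite strand (C10orf55 and CALCRL-AS1), as does ANXA2 (RPL36AP44), and PLAUR overlaps RN7SL368P on its own strand. None of these had a row, and the strand setting of the counting is not given in the sources used here, so their reads cannot be told apart from those of the listed genes.

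Measured genes within 250 kb of the 6 measured genes are described next. ABCD3, the only one near F3, had a log2 fold change of 0.27. The 8 measured neighbours of PLAU lay between -0.155 and 0.419 on the log2 scale, the 3 of SERPINE2 between -0.116 and 0.247, and those of ANXA2, ICE2 and RORA, at -0.0501 and -0.834. Of the 15 neighbours of PLAUR, with a median log2 fold change of 0.195, the highest was LYPD3 at 1.11, and TFPI had no measured neighbour. No neighbour of the 6 genes passed the limma test at an adjusted p under 0.05.

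The other genes of the pathway were taken from 4 lists and tested with limma over all genes, where an adjusted p under 0.05 was reached by 45 genes with a higher (0.429%) and 21 with a lower level (0.2%) under IGFBP2 overexpression. Of 87 listed genes 44 had a row, and 0 of the 44 passed. At an unadjusted p under 0.05, 9 were higher and 4 lower, against 6.88% higher and 6.12% lower over all genes, and limma voom called 2, LYPD3 and CD59. Libraries were apart between groups for 12 genes that were higher and 3 that were lower in IGFBP2 overexpression cells, against 9.43% and 8.61% over all genes. The paper tested these groups with edgeR and reported far more changed transcripts at an FDR under 0.05. That test was not repeated here.

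The plasminogen system list had 9 of its 24 genes in the table. At an unadjusted p under 0.05, 6 were higher and 1 lower, and the median log2 fold change was 0.77. All 4 lists were chosen with earlier results of these data known, so such counts are a description. This list also holds relatives of the urokinase receptor that are not plasminogen proteins. LYPD3, a protein of the same family as the urokinase receptor, was at 14.7, 11.96 and 21.8 CPM in the control and 36.6, 35.5 and 32.9 CPM in the IGFBP2-overexpressing libraries. All its IGFBP2 overexpression libraries were above its control libraries, with a log2 fold change of 1.11 (adjusted p = 0.0933 from limma, and 0.0289 to 0.306 over 14 alternatives). PLGRKT, a plasminogen receptor of the plasma membrane, was at 3.996, 6.12 and 6.87 CPM in the control and 16.0, 13.2 and 10.5 CPM in the IGFBP2-overexpressing libraries. Its groups were apart too, with a log2 fold change of 1.10 (adjusted p = 0.1). MRC2, an endocytic collagen receptor that associates with the urokinase receptor, had a log2 fold change of 1.05 (adjusted p = 0.158), from 3.77 to 7.51 CPM in the control and 9.36 to 14.8 CPM in IGFBP2 overexpression libraries.

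Further genes of that list were picked after their values were seen. CD59, a membrane inhibitor of complement related in fold to the urokinase receptor, was at 240, 283 and 260 CPM in the control and 416, 465 and 454 CPM in the IGFBP2-overexpressing libraries. Its log2 fold change was 0.77 (adjusted p = 0.12 with limma and 0.0204 with limma voom, and 0.0136 to 0.346 over 14 alternatives). S100A10 is described above with ANXA2. LRPAP1, a chaperone of the LRP1 receptor family that clears inhibitor-bound urokinase, had a log2 fold change of 0.60 (adjusted p = 0.242). SERPINB6, an intracellular protease inhibitor, was the gene with lower libraries, at 39.3, 68.2 and 57.0 CPM in the control and 32.4, 33.9 and 36.8 CPM in the IGFBP2-overexpressing libraries (log2 fold change -0.63, adjusted p = 0.294).

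The list of coagulation factors and their inhibitors also holds genes of vitamin K use, lipid scrambling, and protein folding and secretion. Of its 30 genes 11 had a row, and 0 passed with limma or limma voom. Only F12, F8 and PROC among them are factors or inhibitors. The others were GGCX, VKORC1, VKORC1L1, ANO6, XKR8, P4HB, LMAN1 and MCFD2. At an unadjusted p under 0.05, 1 gene of the list was higher and 0 were lower, and the median log2 fold change was 0.14. The largest values were those of F12, which starts the contact pathway (0.90, adjusted p = 0.231), XKR8, a phosphatidylserine scramblase (0.62), and F8, the cofactor of factor IX (0.44). XKR8 was at 1.00 on the log2 scale without control replicate 1 and 0.38 without control replicate 2. For F8, leaving out control replicate 1 or 3 gave 0.16 or 0.73, and leaving out replicate 1 or 3 of IGFBP2 overexpression gave 0.69 or 0.20. Of 9 thrombin and protease receptors 2 had a row, 0 passed with limma or limma voom and 0 had an unadjusted p under 0.05. They were F2RL1, a receptor cleaved by trypsin-like proteases and by the tissue factor and factor VIIa complex, at 0.54 on the log2 scale, and the nucleotide receptor P2RY2 at -0.57, which was -0.16 without IGFBP2 overexpression replicate 3 and -0.89 without replicate 2 of that group. Like TFPI, F8 and F2RL1, with control means of 3.97 and 3.83 CPM, were kept through the IGFBP2 overexpression group alone, so their higher mean there follows from the filter.

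**Figure D4:**
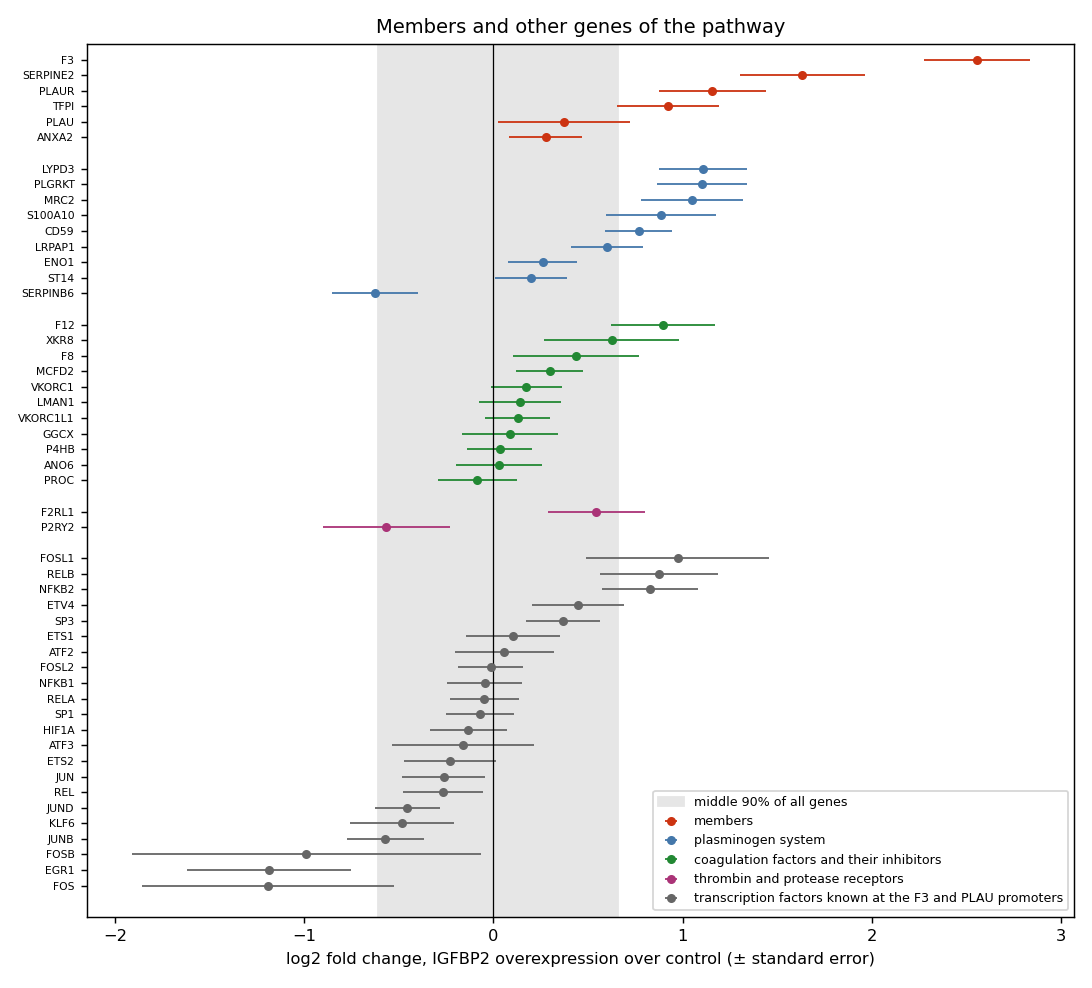
Log2 fold change of the 6 measured genes and of the 44 other pathway genes, IGFBP2 overexpression over control, with bars of 1 standard error from the limma fit. The grey band is the middle 90% of all genes, from -0.611 to 0.656, and F3, SERPINE2, PLAUR and TFPI lie to its right.

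Transcription factors known to act at the F3 and PLAU promoters had 22 of 24 genes in the table. None passed with limma or limma voom, 2 were higher and 3 lower at an unadjusted p under 0.05, and the median log2 fold change was -0.101. EGR1, an immediate early factor, was at 193, 250 and 191 CPM in the control and 67.4, 55.2 and 205 CPM in the IGFBP2-overexpressing libraries. Replicate 3 stood with the control libraries. Its log2 fold change was -1.19 (adjusted p = 0.294), and without IGFBP2 overexpression replicate 3 it was -1.76 with an adjusted p of 0.0276, which passed (0.0276 to 0.623 over 14 alternatives).

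FOS, an AP-1 subunit, was also low in replicates 1 and 2 of IGFBP2 overexpression, at 16.4, 15.3 and 47.7 CPM in the control and 5.46, 4.52 and 31.5 CPM in the IGFBP2-overexpressing libraries, with a log2 fold change of -1.19 (adjusted p = 0.495). For FOSB, another AP-1 subunit, the values were 18.0, 10.9 and 58.6 CPM in the control and 3.90, 4.84 and 58.8 CPM in the IGFBP2-overexpressing libraries (log2 fold change -0.99, adjusted p = 0.713). In both groups replicate 3 was the highest for FOS and FOSB, and the groups overlapped. The log2 fold change of FOS was -2.01 without IGFBP2 overexpression replicate 3, -0.73 without replicate 2 of that group and -0.68 without control replicate 3. For FOSB, leaving out replicate 3, 2 or 1 of IGFBP2 overexpression gave -2.15, -0.47 or -0.35. Leaving out control replicate 3 or 2 gave -0.33 or -1.49. F3, TFPI, PLAUR and SERPINE2 were lowest, among IGFBP2 overexpression libraries, in that same replicate 3, while PLAU and ANXA2 were highest there. IGFBP2 itself was also lowest in that replicate, at 498 CPM against 566 CPM in replicate 1 and 1176 CPM in replicate 2. TFPI, like IGFBP2, was highest in replicate 2, while F3, PLAUR and SERPINE2 were highest in replicate 1. Whether these levels follow that of IGFBP2 was not tested.

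Other factors of this list were picked after their values were seen. The AP-1 subunits JUNB and JUND were those whose libraries were all lower. JUNB was at 131, 180 and 156 CPM in the control and 106, 89.1 and 118 CPM in the IGFBP2-overexpressing libraries (log2 fold change -0.57, adjusted p = 0.289). JUND was at 239, 248 and 272 CPM in the control and 188, 177 and 188 CPM in the IGFBP2-overexpressing libraries (log2 fold change -0.46, adjusted p = 0.305). On the higher side, RELB, an NF-kappaB subunit, was at 18.2, 41.4 and 40.0 CPM in the control and 51.5, 68.8 and 55.2 CPM in the IGFBP2-overexpressing libraries (log2 fold change 0.87, adjusted p = 0.29). NFKB2, its partner subunit, was at 14.2, 16.7 and 27.5 CPM in the control and 38.6, 31.0 and 32.9 CPM in the IGFBP2-overexpressing libraries (log2 fold change 0.83, adjusted p = 0.231). RELB and NFKB2 had groups that were apart, and RELB was at 0.50 on the log2 scale without control replicate 1. The NF-kappaB subunits RELA, NFKB1 and REL had groups that overlapped, with log2 fold changes of -0.048, -0.047 and -0.27. SP3 was the other factor with all libraries higher, by little. Its lowest IGFBP2 overexpression library was 1.006-fold above its highest control library (log2 fold change 0.37, adjusted p = 0.467). FOSL1, another AP-1 subunit, ranged from 15.4 to 71.9 CPM in the control and from 48.6 to 89.7 CPM in IGFBP2 overexpression libraries, so its groups overlapped, at a log2 fold change of 0.97 that was 0.47 without control replicate 3 and 1.55 without control replicate 1. Whether any of these factors bears on the F3 level was not tested.

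**Figure D5:**
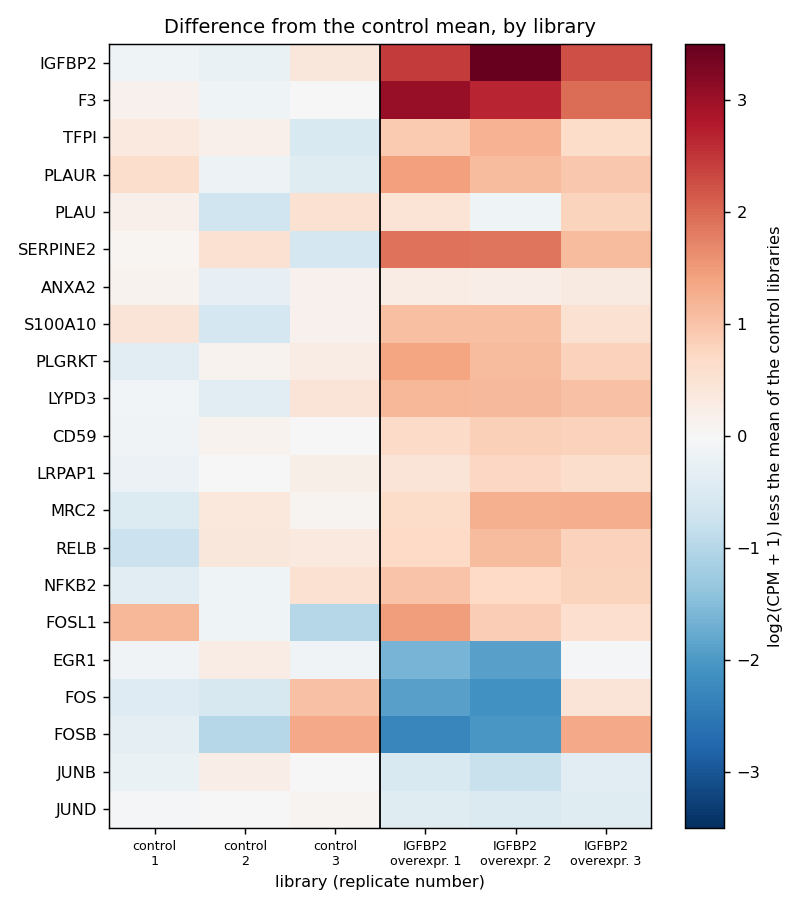
Difference of each library from the mean of the control libraries, in log2(CPM + 1), for IGFBP2, the 6 measured genes and other genes of the pathway; columns are libraries and red is higher. F3 is red in all 3 IGFBP2 overexpression libraries, while EGR1, FOS and FOSB are blue in replicates 1 and 2 of that group and near or above 0 in replicate 3.

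The genes whose levels were most like those of F3 over the 6 libraries were sought among 6630 genes with an average of at least 20 CPM. They were ZSWIM8 (Pearson's r = 0.998), ITGAV (0.991), ACADVL (0.990), TGFBI (0.988) and PEDS1 (0.984), given as a description, since 6 libraries of these groups share the difference between groups. ZSWIM8 had a log2 fold change of only 0.30 and lies within 250 kb of PLAU, and ITGAV, the integrin alpha V subunit, had one of 0.55. TGFBI, a secreted matrix protein, was the one with a difference larger than that of F3, at 9.65 ± 1.08 CPM (SD, n = 3) for control and 166 ± 53.6 CPM (SD, n = 3) for IGFBP2 overexpression, a log2 fold change of 3.92.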

How the data were processed

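Bulk 3′ RNA-seq of 3 control and 3 IGFBP2 overexpression libraries was analysed. The authors used bbduk for trimming, STAR for alignment to hg38, and counted reads per gene with htseq-count (HTSeq 0.9.1). The authors scaled the counts and called differential expression with edgeR. They retained each gene whose mean exceeded 5 CPM in either group, and deposited log2(CPM + 1) values. The sources differ on the RNA input per library.

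Reads were back-calculated from the spacing of the values, 100% of which came out whole within 0.1 of a read. The members and lists were chosen with earlier results of these data known. The deposited log2 values of all 10487 genes were fitted with limma (version 3.58.1, R 4.3.3), with group as the only term, no trend and two-sided Benjamini-Hochberg adjustment. The fits were tested on simulated data. Symbols and positions came from GENCODE 44 (10462 identifiers matched). Tables and plots used Python 3.11.15, pandas 2.3.3, numpy 2.4.6 and matplotlib 3.10.9. Named genes were the listed genes, IGFBP2, the 3 largest absolute log2 fold changes of each pathway list with any gene that passed, and the 5 genes most correlated with F3. Alternatives were other scalings, pseudocounts, a filter on low values, a trend, limma voom, the replicate block, a stricter threshold and leaving out each library.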

Additional observations from a re-analysis of the deposited data

How the results depend on the processing

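The 66 genes called over all genes became 129 with a pseudocount of 5, 160 with a mean-variance trend, 141 with limma voom and 6 at an adjusted p under 0.01. Leaving out 1 library gave 12 to 79 calls, with 12 without IGFBP2 overexpression replicate 1, 13 without IGFBP2 overexpression replicate 2 and 17 without control replicate 3. Of the 44 pathway genes 0 passed, but 1 did with a pseudocount of 5 (LYPD3), and 2 each with the trend and with limma voom (CD59 and LYPD3). Leaving out 1 library gave 0 to 1 (EGR1). With the replicate block 55 genes and 0 pathway genes were called. Whether same-numbered libraries were handled together is not given in the sources used here. Over all genes, the correlations of their deviations from the group means were 0.172, -0.064 and 0.0842. With the block, the standard error was smaller for PLAU (0.192 against 0.35), SERPINE2 (0.202 against 0.33), PLAUR, TFPI and F3. It was slightly larger for ANXA2 (0.1955 against 0.191). The 5 listed genes that were apart between groups became 4 at an average CPM over 10, where TFPI was filtered out. All 77 log2 fold changes of the 6 measured genes under the alternatives were positive, and 76 moved by less than 1 SD between replicates, with F3 at 2.07 under a pseudocount of 5 as the exception. The alternatives reuse the same libraries and the genes were chosen on this contrast, so the signs are a description. Limma voom and the replicate block for the fold changes of single listed genes were added after seeing the data. Of the 6 measured genes TFPI had the fewest reads, 7 to 37 per library.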
